A study of Mus musculus with 6 samples.

Results

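The genes described here are the laminin chains and the integrin subunits, chosen by symbol: every gene named as a laminin alpha, beta or gamma chain or as an integrin alpha or beta subunit that had at least 1 count in any sample. The rule found 37 genes, 11 laminin chains and 26 integrin subunits, among the 49671 gene IDs of the table. Their RNA was measured by bulk RNA-seq in 6 whole-liver samples of male C57BL/6J mice. All 6 carried the floxed *SHMT2* allele. Of these, 3 had no Cre (SHMT2 fl/fl, labelled WT1 to WT3) and 3 had Albumin-Cre (SHMT2 HKO, labelled KO1 to KO3). This transgene was meant to remove the floxed exons in hepatocytes. From SHMT2 protein levels at different ages, the paper proposes that other liver cells kept SHMT2. Bulk RNA cannot show in which cells the gene was lost. All 6 mice were switched at 4 weeks of age to the AMLN diet (high fat with fructose and added cholesterol) and stayed on it for 18 weeks. The comparison asked which laminin and integrin genes differed in the liver of SHMT2 HKO mice on this diet.

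Laminins are cross-shaped proteins of the basement membrane, the thin matrix sheet beneath epithelia and around vessels, muscle and fat cells. Each is a trimer of 1 alpha, 1 beta and 1 gamma chain, and the alpha chain carries the main binding sites for cells. Integrins are receptors made of 1 alpha and 1 beta subunit that hold cells to matrix or to other cells and pass signals in both directions. In liver, continuous laminin-rich basement membranes surround bile ducts and portal vessels, while the sinusoids between hepatocytes normally lack one, and the integrins of the beta 2 and beta 7 families sit on leukocytes.

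Each library held between 23090837 and 34089722 gene counts. Levels are in CPM, counts scaled to the TMM-adjusted library size, and 3 counts, taken as the floor, came to 0.0880 to 0.130 CPM before that adjustment. *Shmt2* had 3866, 2897 and 3600 counts in the 3 SHMT2 fl/fl mice and 587, 558 and 491 in the 3 SHMT2 HKO mice, a log2 fold change of -2.04 (SE 0.16, adjusted p = 0.000639). Unless another setting is named, every log2 fold change below is SHMT2 HKO against SHMT2 fl/fl from edgeR with TMM scaling. A gene was called at a Benjamini-Hochberg adjusted p under 0.05 over 16089 genes. Of those genes, 4663 (29.0%) were called, 2651 (16.5%) lower and 2012 (12.5%) higher in SHMT2 HKO mice, with a median log2 fold change of 0.03. This split depended on scaling, with 4923 lower and 539 higher without TMM and 2759 lower and 107 higher when the ERCC spike-in RNAs set the scale. The TMM factors were 1.13 to 1.21 in SHMT2 fl/fl mice and 0.802, 0.812 and 0.984 in KO2, KO1 and KO3, so KO3 stood nearest to the controls. The labels number 3 samples per genotype without stating that each came from a separate mouse. Each is called a mouse here, and p-values measure only the spread between these samples, which may be technical.

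Most laminin and integrin genes were lower in SHMT2 HKO livers. Of the 36 genes tested, 22 (61.1%) were lower, 2 (5.56%) were higher and 12 were not called, against 16.5% lower and 12.5% higher among all genes. Their median log2 fold change was -1.10. The 22 comprised 7 of 11 laminin chains and 15 of 25 tested integrin subunits, and the 2 higher genes were *Lama1* and *Itgb3*. The 3 SHMT2 HKO mice lay below all 3 SHMT2 fl/fl mice for 24 of the 37 genes and above them for 3, where 25.0% and 21.9% of all genes tested were so separated. In bulk liver, fewer cells of a type and less RNA per cell cannot be told apart. Levels in KO3 were the highest of the 3 SHMT2 HKO mice for 18 of the 22 lower genes, and for 1616 of the 2651 lower genes overall. Without KO3, 23 of the 36 genes were lower and 3 higher.

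**Figure D1:**
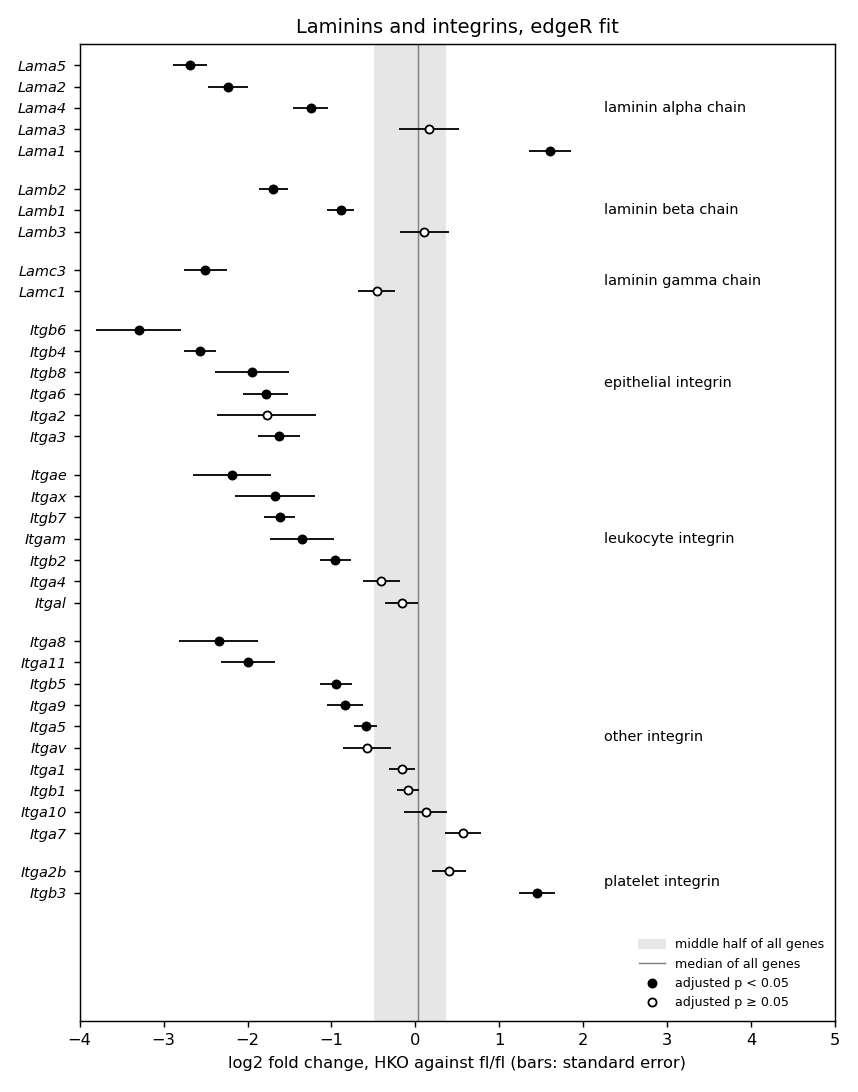
Log2 fold change of 35 tested laminin and integrin genes in SHMT2 HKO against SHMT2 fl/fl livers on the x axis, grouped by role on the y axis, with bars of 1 SE, filled circles for an adjusted p under 0.05, open circles otherwise, and a grey band from the 25% to the 75% quantile of all genes. The points run from -3.30 (*Itgb6*) to 1.60 (*Lama1*), and 21 of the 35 were called lower.

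The laminin alpha chains moved in opposite directions. *Lama5*, the alpha chain of the laminins of most adult epithelial and vascular basement membranes, was at 41.6, 62.8 and 43.8 CPM in SHMT2 fl/fl mice and at 8.79, 6.58 and 7.60 CPM in SHMT2 HKO mice. The log2 fold change was -2.69 (SE 0.20, adjusted p = 0.000639), a 6.44-fold lower level. *Lama2*, the chain found around muscle and mesenchymal cells, was at 17.5, 23.3 and 22.8 against 3.31, 4.15 and 6.02 CPM (log2 fold change -2.23, SE 0.24, adjusted p = 0.00111). *Lama4*, a chain of vessel walls, was at 17.1, 22.3 and 15.4 against 6.11, 7.70 and 9.25 CPM (log2 fold change -1.25, SE 0.21, adjusted p = 0.00424). None of these 3 chains overlapped between genotypes.

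*Lama1*, an alpha chain best known from embryonic basement membranes, rose. Its level was 2.05, 1.66 and 1.88 CPM in SHMT2 fl/fl mice and 4.37, 7.04 and 5.67 CPM in SHMT2 HKO mice, a log2 fold change of 1.60 (SE 0.25, adjusted p = 0.00336). The lowest SHMT2 HKO mouse was above the highest control. With ERCC scaling, which shifted the median of all genes by -0.72, its log2 fold change was 0.89 and the call was lost (adjusted p = 0.316). *Lama3*, an alpha chain of epithelia, was at 2.97 to 3.16 CPM in SHMT2 fl/fl mice and at 5.56, 2.23 and 2.56 CPM in SHMT2 HKO mice (adjusted p = 0.760). KO1 alone lay above the controls, and without KO1 the log2 fold change was -0.36 instead of 0.16.

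As shares of the summed alpha chain level per exon length (TPM) within each mouse, *Lama5* made up 56.5% ± 2.76 (SD, n = 3) in SHMT2 fl/fl mice and 27.0% ± 3.97 (n = 3) in SHMT2 HKO mice. The *Lama1* share was 3.19%, 1.85% and 2.77% in the controls and 18.4%, 30.2% and 22.3% in SHMT2 HKO mice. These shares do not depend on library scaling, and neither chain overlapped between genotypes.

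The upstream sequence of *Lama5* is shown because it had one of the largest falls among the laminins. The gene lies on the minus strand of mouse chromosome 2 (180176373 to 180225859, GRCm38), and the RefSeq window of 250 bases before its start is chr2:180225860-180226109. Capitals mark GAGGAA, the core bound by PU.1-type ETS factors, searched on both strands together with the AP-1 motif TGANTCA.
Lama5 upstream window: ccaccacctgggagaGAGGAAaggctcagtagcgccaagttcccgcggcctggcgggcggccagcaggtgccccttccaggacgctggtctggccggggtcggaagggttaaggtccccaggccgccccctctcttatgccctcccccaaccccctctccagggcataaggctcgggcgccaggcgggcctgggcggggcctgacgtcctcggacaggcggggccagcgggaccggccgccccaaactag
GAGGAA lay 235 bases before the start. RefSeq windows were matched for 23 of the 37 genes, with 26 windows in all, of which 13 (50.0%) held GAGGAA and 1 (3.85%) held TGANTCA, against 23.3% and 6.75% of 32851 mouse windows of the same length. Among the 17 windows of 15 genes called lower, 9 (52.9%) held GAGGAA. These matches are descriptions of letters, and binding was not measured.

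Of the beta chains, *Lamb1* and *Lamb2* fell and *Lamb3* did not. *Lamb2*, the partner of *Lama5* in vessel and duct laminins, was at 36.2, 53.7 and 40.8 CPM against 12.1, 13.1 and 15.2 CPM (log2 fold change -1.69, SE 0.17, adjusted p = 0.00104). *Lamb1*, the broadly expressed beta chain, was at 26.0, 34.9 and 30.1 against 15.0, 15.0 and 19.0 CPM (log2 fold change -0.89, SE 0.16, adjusted p = 0.00550). Both chains were separated between genotypes, while *Lamb3* overlapped. *Lamb3*, a beta chain of epithelia, was at 9.54, 17.0 and 11.2 CPM against 9.97, 18.8 and 11.8 CPM, a log2 fold change of 0.11 (SE 0.29, adjusted p = 0.807) whose sign turned without TMM (-0.33) and with ERCC scaling (-0.60). The count ratio of *Lamb3* to *Lamb1* was 0.367, 0.486 and 0.372 in the controls and 0.666, 1.25 and 0.621 in SHMT2 HKO mice, a 1.99-fold difference.

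Among the gamma chains, *Lamc3* fell and *Lamc1* was not called. *Lamc3*, a less common gamma chain, was at 34.7, 51.8 and 41.3 CPM against 5.64, 6.53 and 10.3 CPM (log2 fold change -2.50, SE 0.25, adjusted p = 0.000960), with no overlap between genotypes. *Lamc1*, which is the gamma chain of most laminins, was at 40.1, 42.7 and 43.7 against 24.8, 24.0 and 43.1 CPM (log2 fold change -0.46, SE 0.22, adjusted p = 0.154). KO3 lay within the range of the controls and the other SHMT2 HKO mice below it, and without KO3 the *Lamc1* log2 fold change was -0.81 with an adjusted p of 0.00156. Per exon length, *Lamc3* stood at 19.8 ± 2.34 TPM (SD, n = 3) beside 14.6 ± 0.878 TPM (n = 3) for *Lamc1* within SHMT2 fl/fl livers.

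**Figure D2:**
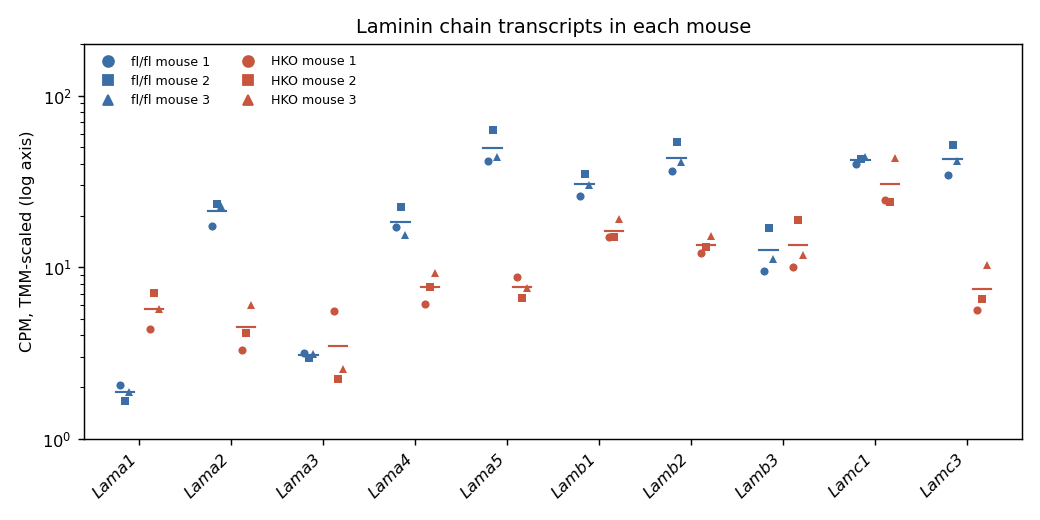
CPM of 10 laminin chains on a log y axis, with 1 point per mouse and a bar at the mean, SHMT2 fl/fl beside SHMT2 HKO. The SHMT2 HKO points lie below the SHMT2 fl/fl points for 6 chains, above them for *Lama1*, and overlap for *Lama3*, *Lamb3* and *Lamc1*.

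**Figure D3:**
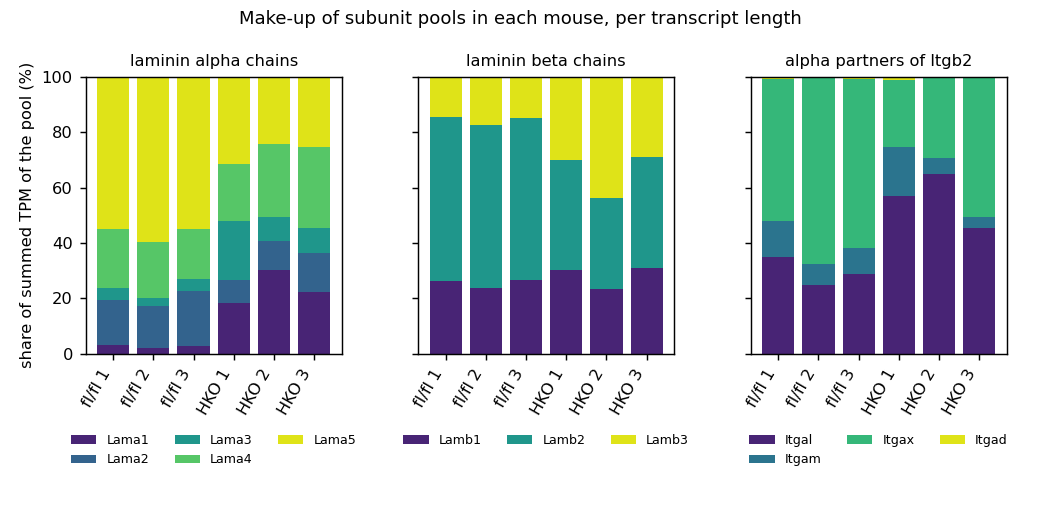
Share in percent of the summed TPM of laminin alpha and beta chains and of the alpha partners of *Itgb2*, 1 stacked bar per mouse. The *Lama5* and *Lamb2* shares are smaller and the *Lama1* and *Lamb3* shares larger in all 3 SHMT2 HKO mice. A larger share need not be a higher level, and *Lamb3* itself was not called.

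The epithelial integrin subunits were the integrin group with the lowest median. Of 6 subunits, 5 fell and *Itga2* was not called, with a median log2 fold change of -1.87 and no overlap between genotypes for any of the 6. Over all genes tested, 16.5% were called lower, and 25.0% were lower without overlap. *Itgb4*, which pairs with *Itga6* as the laminin receptor of hemidesmosomes, was at 13.7, 19.5 and 16.1 CPM against 2.50, 2.84 and 2.95 CPM (log2 fold change -2.57, SE 0.19, adjusted p = 0.000639). *Itga6* was at 12.6, 12.5 and 13.0 against 2.97, 2.63 and 5.39 CPM (log2 fold change -1.78, SE 0.27, adjusted p = 0.00304). Both subunits of this receptor were thus lower in every SHMT2 HKO mouse. *Itga3*, the alpha subunit of another laminin receptor, was at 30.8, 61.0 and 43.0 against 14.9, 12.2 and 16.5 CPM (log2 fold change -1.62, SE 0.25, adjusted p = 0.00320).

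*Itgb6* and *Itgb8*, the beta subunits that pair with *Itgav* to release active TGF-beta from its latent complex, also fell. *Itgb6* had 143, 192 and 146 counts in SHMT2 fl/fl mice and 5, 8 and 21 counts in SHMT2 HKO mice, the largest fall among the integrins (log2 fold change -3.30, SE 0.51, adjusted p = 0.00324). *Itgb8* was at 5.90, 4.21 and 3.78 CPM against 1.23, 0.456 and 1.85 CPM (log2 fold change -1.95, SE 0.44, adjusted p = 0.0138), a call lost without WT1 (adjusted p = 0.0600). *Itga2*, a collagen receptor subunit, was a low-count gene with 27, 32 and 16 against 8, 2 and 5 counts (log2 fold change -1.77, SE 0.59, adjusted p = 0.0546). It passed the threshold without KO1 (adjusted p = 0.0379), without TMM (0.0235) and with ERCC scaling (0.00622).

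Cholangiocyte markers were lower too. All 10 of 10 listed markers of bile duct cells fell, with a median log2 fold change of -3.04 and a range from -4.02 to -1.17, and their summed level was 265 to 463 CPM in SHMT2 fl/fl mice and 53.9 to 67.5 CPM in SHMT2 HKO mice. *Krt19*, a keratin of bile duct cells, was at 43.2 ± 20.1 CPM (SD, n = 3) against 5.48 ± 0.805 CPM (n = 3). Of 8 hepatocyte markers, 2 were higher and none lower, where 12.5% of all genes were higher and 16.5% lower. Hepatocyte markers summed to 51868 to 63346 CPM and to 64655 to 94166 CPM. These sums depend on TMM scaling, whose factors were 1.13 to 1.21 in SHMT2 fl/fl mice and 0.802 to 0.984 in SHMT2 HKO mice. The part of these shifts in cell markers in the laminin and integrin results was not tested.

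**Figure D4:**
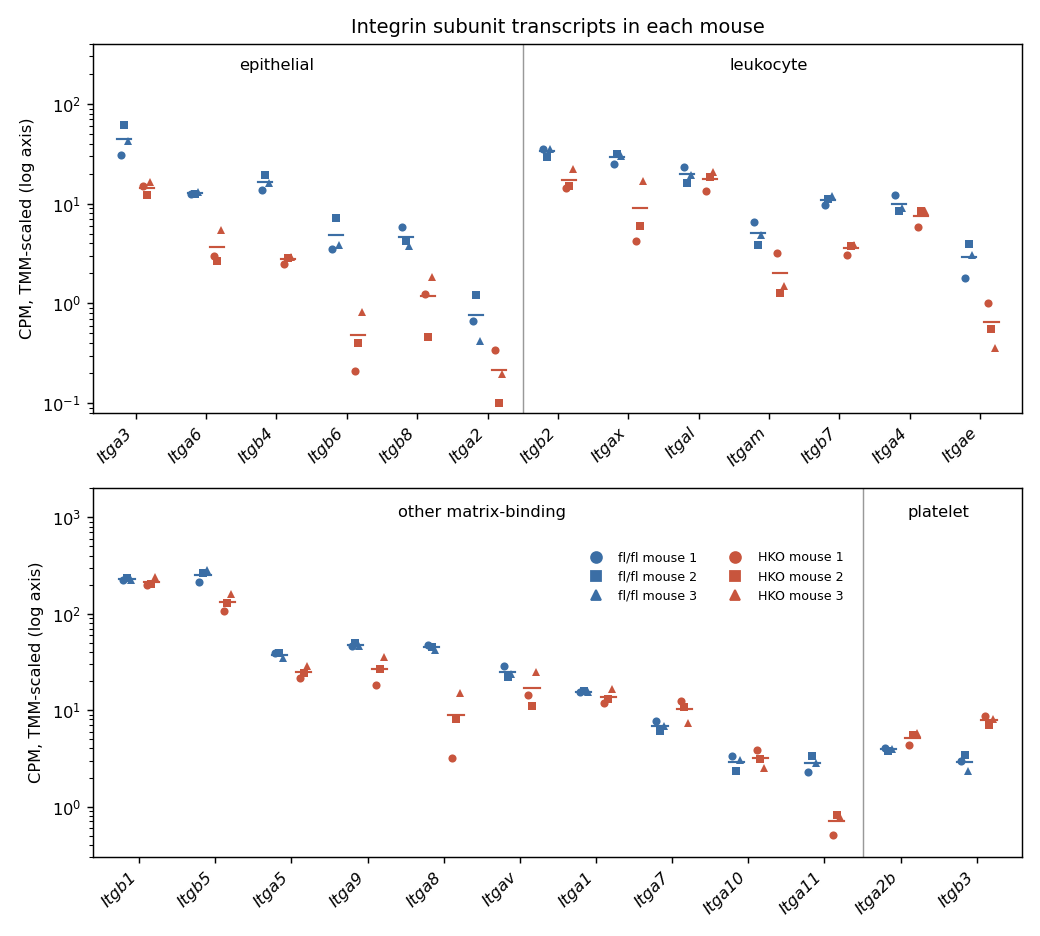
CPM of the 25 tested integrin subunits on a log y axis, with 1 point per mouse and a bar at the mean, SHMT2 fl/fl beside SHMT2 HKO. The 6 epithelial subunits are separated between genotypes, *Itgb1* lies at about the same level in both, and *Itgb3* is higher in all 3 SHMT2 HKO mice.

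Leukocyte integrin subunits were mostly lower too. Of 8 genes, 7 were tested, 5 fell and 2 were not called, with a median log2 fold change of -1.35. The shares over all genes tested were 16.5% called lower and 25.0% lower without overlap. *Itgb2*, the beta subunit shared by the leukocyte beta 2 integrins, was at 35.6, 29.7 and 35.5 CPM against 14.4, 15.1 and 22.5 CPM (log2 fold change -0.95, SE 0.19, adjusted p = 0.00782). *Itgb7*, the beta subunit of gut-homing and intraepithelial lymphocytes, was at 9.71, 11.2 and 12.1 against 3.06, 3.80 and 3.90 CPM (log2 fold change -1.61, SE 0.18, adjusted p = 0.00128). No SHMT2 HKO mouse reached a control for either beta subunit. *Itgae*, the alpha partner of *Itgb7* that binds E-cadherin, was at 1.81, 3.95 and 3.08 against 1.02, 0.557 and 0.354 CPM (log2 fold change -2.18, SE 0.46, adjusted p = 0.0106).

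The alpha partners of *Itgb2* differed among themselves. *Itgax* (CD11c), abundant on dendritic cells and some macrophages, was at 25.2, 31.8 and 30.3 CPM against 4.20, 6.03 and 16.9 CPM (log2 fold change -1.68, SE 0.48, adjusted p = 0.0369). *Itgam* (CD11b), of monocytes, macrophages and neutrophils, was at 6.56, 3.88 and 4.85 against 3.23, 1.27 and 1.50 CPM (log2 fold change -1.35, SE 0.38, adjusted p = 0.0316). Neither overlapped between genotypes, but both calls were lost in some alternatives. The adjusted p of *Itgax* was 0.0761 to 0.108 without WT1, WT2, WT3 or KO2 and 0.190 with no filter beyond 1 count, and that of *Itgam* was 0.0502 to 0.120 without WT1, WT2, WT3, KO2 or KO3. *Itgal* (CD11a), found on nearly all leukocytes, was at 23.4, 16.1 and 19.5 CPM against 13.5, 18.3 and 20.8 CPM (log2 fold change -0.17, SE 0.20, adjusted p = 0.570). *Itgad* had 12, 4 and 10 against 4, 0 and 1 counts and was removed by the filter on low counts. *Itga4*, the alpha subunit that binds VCAM-1, was at 9.95 ± 2.10 CPM (SD, n = 3) against 7.52 ± 1.48 CPM (n = 3) and was not called (log2 fold change -0.41, adjusted p = 0.198), although its groups did not overlap, and without TMM it passed the threshold (adjusted p = 0.0443).

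Ratios of counts within a mouse, which need no library scaling, differed between subunits. The *Itgal* to *Itgb2* ratio was 0.657, 0.541 and 0.550 in the controls and 0.935, 1.21 and 0.926 in SHMT2 HKO mice, 1.75-fold higher. By contrast the *Itgb7* to *Itgb2* ratio was 0.273, 0.376 and 0.339 against 0.212, 0.251 and 0.173, 0.642 times the control level. The *Itgb4* to *Itgb1* ratio, an epithelial against a near-ubiquitous beta subunit, was 0.0616, 0.0828 and 0.0716 against 0.0126, 0.0139 and 0.0123. These 3 ratios and that of *Lamb3* to *Lamb1* did not overlap between genotypes and each gave p = 0.1 in a two-sided exact permutation test, the smallest p that 3 mice against 3 allow, and 0.16 after adjustment over 8 ratios. *Itgb2* to *Ptprc*, the pan-leukocyte CD45 gene, was 0.914, 1.26 and 1.15 against 1.37, 1.34 and 1.18 and overlapped (exact permutation p = 0.2). *Itgax* to *Itgb2* and *Itgam* to *Itgb2* also overlapped (exact permutation p = 0.2 and 0.5).

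Per exon length, *Itgax* made up 51.5%, 67.1% and 61.2% of the 4 alpha partners of *Itgb2* in SHMT2 fl/fl mice and 24.2%, 29.2% and 50.3% in SHMT2 HKO mice. The *Itgal* share was 29.5% ± 5.15 (SD, n = 3) and 55.7% ± 9.88 (n = 3). The largest TPM share thus belonged to *Itgax* in all 3 controls and to *Itgal* in KO1 and KO2, with KO3 still led by *Itgax*. *Itgal* itself was not called (log2 fold change -0.17, adjusted p = 0.570), so its larger share does not mean a higher level. The *Itgam* part of the summed TPM is uncertain, since another gene overlaps 3450 of its 5024 exon bp on the same strand.

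*Itgam*, *Itgax* and *Itgad* lie in a row on the plus strand of chromosome 7, with gaps of 11055 and 3718 bp. The upstream windows of the first pair, genes of 1 locus that both fell, are given for comparison, with GAGGAA on either strand in capitals for *Itgam* and TGANTCA in capitals for *Itgax* (chr7:128062390-128062639 and chr7:128129300-128129549, GRCm38, plus strand).
Itgam upstream window: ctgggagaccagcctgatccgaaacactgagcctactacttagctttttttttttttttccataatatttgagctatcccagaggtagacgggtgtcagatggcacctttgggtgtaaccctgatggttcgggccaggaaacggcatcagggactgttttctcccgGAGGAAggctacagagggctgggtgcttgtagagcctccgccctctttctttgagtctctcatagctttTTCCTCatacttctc
Itgax upstream window: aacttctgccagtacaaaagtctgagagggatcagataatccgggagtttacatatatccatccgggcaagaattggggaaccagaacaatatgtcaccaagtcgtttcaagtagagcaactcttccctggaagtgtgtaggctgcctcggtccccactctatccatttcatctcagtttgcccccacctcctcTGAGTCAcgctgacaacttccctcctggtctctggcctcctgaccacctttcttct
*Itgam* held GAGGAA 84 bases before the start and again, on the other strand, 15 bases before it, while *Itgax* held none and had the 1 AP-1 match of all 26 windows, 56 bases before its start.

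Pan-leukocyte markers and most T cell markers were lower, while the other leukocyte lists were less uniform. All 4 pan-leukocyte markers fell, with a median log2 fold change of -1.23, and summed to 185 to 213 CPM in SHMT2 fl/fl mice and 62.5 to 112 CPM in SHMT2 HKO mice. T cell markers fell for 7 of 8 genes (23.8 to 31.2 CPM summed against 6.08 to 7.94 CPM) and dendritic markers for 3 of 6 (25.1 to 29.5 against 13.8 to 21.1 CPM). Macrophage and Kupffer markers were mixed, with 3 of 8 lower and 2 higher, and their sums of 537 to 750 and 445 to 541 CPM overlapped. NK cell markers fell for 2 of 4 genes (5.22 to 6.92 against 1.47 to 1.93 CPM) and B cell markers for 0 of 5 (5.45 to 6.78 against 2.50 to 4.71 CPM). Of 4 tested neutrophil markers, 1 was lower, with a list median of 0.03 and overlapping sums (7.79 to 12.0 against 4.46 to 8.31 CPM). Among all genes, 16.5% were lower and 12.5% higher, so the neutrophil count is no result about that list. How far the leukocyte markers account for the leukocyte integrin values was not tested.

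**Figure D5:**
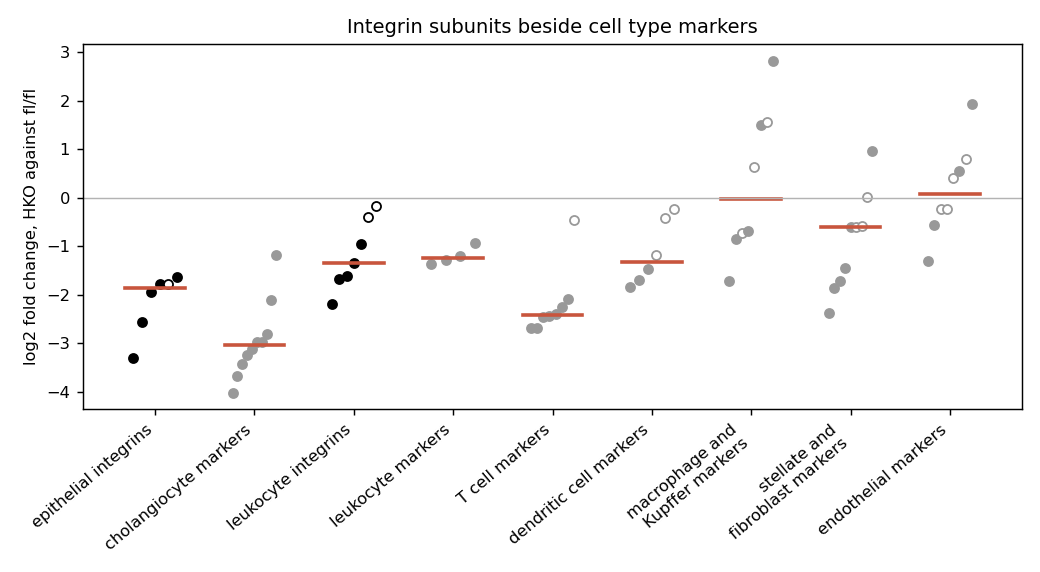
Log2 fold change (y axis, SHMT2 HKO against SHMT2 fl/fl) of each tested epithelial and leukocyte integrin subunit (black) beside the genes of 7 marker lists (grey), filled where the adjusted p was under 0.05, with a red bar at each median. The medians are -1.87 for epithelial integrins and -3.04 for cholangiocyte markers, and -1.35 for leukocyte integrins and -1.23 for leukocyte markers. For T cell, dendritic and stellate and fibroblast markers they are -2.41, -1.32 and -0.60. Macrophage and Kupffer markers have a median of -0.02 and endothelial markers of 0.08. Hepatocyte, neutrophil, B cell, NK cell, platelet and smooth muscle markers are not plotted.

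Of the pair of subunits that form the platelet fibrinogen receptor, *Itgb3* rose and *Itga2b* was not called. *Itgb3*, the beta subunit of that receptor and of the vitronectin receptor of endothelium and macrophages, was at 2.98, 3.46 and 2.35 CPM in SHMT2 fl/fl mice and at 8.70, 7.04 and 8.15 CPM in SHMT2 HKO mice (log2 fold change 1.45, SE 0.21, adjusted p = 0.00283). The groups did not overlap, but with ERCC scaling the log2 fold change was 0.75 and the call was lost (adjusted p = 0.379). *Itga2b*, its platelet-specific alpha partner, was at 4.09, 3.76 and 3.97 against 4.33, 5.47 and 5.79 CPM (log2 fold change 0.40, SE 0.20, adjusted p = 0.169), and its sign turned without TMM (-0.016) and with ERCC scaling (-0.27). Platelet markers summed to 3.87 to 5.01 and to 2.48 to 3.58 CPM, a sum of which *Pf4* was the largest part in the controls. *Pf4* was lower (log2 fold change -1.45, adjusted p = 0.0112), while *Ppbp* (1.03, adjusted p = 0.128) and *Gp1ba* (0.39, adjusted p = 0.569) were not called. *Ppbp* and *Gp9* lay above the controls in all 3 SHMT2 HKO mice, 4 of the 5 markers had low counts, and the median of the 3 tested was 0.39, so the markers gave no single direction. Endothelial markers summed to 210 to 230 and to 251 to 298 CPM, with 2 of 8 lower and 2 higher. Such sums in CPM depend on TMM scaling. Among all genes, 16.5% were lower and 12.5% higher.

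Among the 10 other matrix-binding subunits, 5 fell and 5 were not called, with a median log2 fold change of -0.58. *Itga8*, the nephronectin receptor subunit of mesenchymal cells, was at 47.5, 45.3 and 41.9 CPM against 3.23, 8.15 and 15.0 CPM (log2 fold change -2.34, SE 0.47, adjusted p = 0.0113), a call lost with no filter beyond 1 count (adjusted p = 0.0859). *Itga11*, a collagen receptor subunit of fibroblasts, was at 2.28, 3.31 and 2.84 against 0.509, 0.810 and 0.787 CPM (log2 fold change -1.99, SE 0.32, adjusted p = 0.00370). Both genes were separated between genotypes. Stellate and fibroblast markers summed to 1294 to 1394 and to 336 to 845 CPM, with 5 of 9 lower and 1 higher. The 1 higher gene was *Reln* (log2 fold change 0.97, adjusted p = 0.0105). *Col1a1*, the main fibrillar collagen gene, had 46.3, 90.0 and 180 CPM in KO1, KO2 and KO3, the same order as *Itga8*. KO3 was the highest SHMT2 HKO mouse for 1616 of the 2651 lower genes, so its place in this order is not particular to the pair. The part of stellate cells and fibroblasts in the *Itga8* value was not tested. Smooth muscle markers summed to 26.7 to 30.1 and to 15.7 to 19.5 CPM, with 1 of 3 tested lower. Among all genes, 16.5% were lower and 12.5% higher.

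*Itgb5* and *Itgb1* were the most abundant integrins per exon length, at 203 ± 22.2 and 160 ± 9.63 TPM (SD, n = 3) in SHMT2 fl/fl livers. *Itgb5*, a vitronectin receptor subunit, was at 212, 263 and 285 CPM against 106, 128 and 162 CPM (log2 fold change -0.94, SE 0.19, adjusted p = 0.00897). *Itgb1*, the common partner of the laminin, collagen and fibronectin receptors, was at 223, 236 and 225 CPM against 198, 204 and 240 CPM (log2 fold change -0.09, SE 0.13, adjusted p = 0.643). The 2 leading beta subunits thus differed in their call, and without TMM *Itgb1* also passed the threshold (log2 fold change -0.50, adjusted p = 0.0489). Of the 5 beta partners of *Itgav*, *Itgb5* held 55.2% ± 3.60 (SD, n = 3) of the summed TPM in the controls and 40.4% ± 2.97 (n = 3) in SHMT2 HKO mice. *Itgav* itself was at 25.1 ± 3.50 CPM (SD, n = 3) against 16.8 ± 7.32 CPM (n = 3) and was not called (log2 fold change -0.58, adjusted p = 0.161), with KO3 among the controls at 25.0 CPM, and without KO3 it passed the threshold (log2 fold change -1.01, adjusted p = 0.00431).

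*Itga5*, the fibronectin receptor subunit, and *Itga9*, a receptor subunit for tenascin and osteopontin, had small falls. *Itga5* was at 39.1, 38.7 and 35.1 CPM against 21.6, 24.2 and 29.0 CPM (log2 fold change -0.59, adjusted p = 0.0145), and its adjusted p was 0.0534 to 0.0581 without WT1, WT2 or KO2 and 0.0819 with ERCC scaling. *Itga9* was at 46.3, 50.2 and 46.6 against 18.3, 26.4 and 35.2 CPM (log2 fold change -0.84, adjusted p = 0.0215), with an adjusted p of 0.0622 to 0.0723 without WT1, WT2, WT3 or KO2. *Itga1*, a collagen receptor subunit, was at 15.4 ± 0.211 CPM (SD, n = 3) against 13.8 ± 2.33 CPM (n = 3), with overlapping groups (log2 fold change -0.16, adjusted p = 0.462). *Itga10*, another collagen receptor subunit, was at 2.90 ± 0.510 against 3.16 ± 0.651 CPM (log2 fold change 0.12, adjusted p = 0.756), with a sign that turned without TMM, with ERCC scaling and without WT2 or KO1. *Itga7*, the laminin receptor subunit of muscle, was at 7.71, 6.06 and 6.81 against 12.5, 10.7 and 7.40 CPM (log2 fold change 0.57, adjusted p = 0.0858). It passed the threshold without KO3 (log2 fold change 0.73, adjusted p = 0.0171) and turned sign with ERCC scaling (-0.29). Its annotated exons overlap by 9 bp those of *Mettl7b* on the other strand, a gene with 124131 counts over the 6 mice. Annotated overlaps with another gene on the same strand covered 3450 of the 5024 exon bp of *Itgam* and 1739 of the 5186 exon bp of *Itga10*, and the overlapping genes had 14 and 9 counts over the 6 mice. Overlaps on the other strand covered 1124 bp of *Itga4*, 634 bp of *Itgav*, 537 bp of *Itgb4*, 388 bp of *Itgad*, 382 bp of *Lamc3*, 372 bp of *Itga8* and 197 bp of *Lama3*. Those overlapping genes had 1 to 320 counts. Reads in these stretches cannot be assigned with certainty, which makes the counts of these genes uncertain.

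The partners of laminins in the basement membrane mostly fell as well. Of 11 listed genes, 8 (72.7%) fell, 1 rose and 2 were not called, against 16.5% lower and 12.5% higher among all genes. Their median log2 fold change was -1.21. *Col15a1*, a collagen anchored to basement membranes, was at 50.9 ± 6.94 CPM (SD, n = 3) against 14.7 ± 0.915 CPM (n = 3) (log2 fold change -1.79, adjusted p = 0.000639). Agrin (*Agrn*), which links laminin to cell receptors, and *Col4a2*, a chain of the collagen IV network, both had log2 fold changes of -1.59 (adjusted p = 0.000912 for *Agrn* and 0.00125 for *Col4a2*). *Col18a1*, a collagen that hepatocytes also make, was the 1 gene that rose (682 ± 42.6 against 986 ± 144 CPM, log2 fold change 0.53, adjusted p = 0.0456). Its rise was smaller in size than the shift of -0.72 that ERCC scaling gave the median of all genes. Values of *Col18a1* with other scalings are not given here.

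Ligands of integrins other than laminins fell for 11 of 24 tested genes (45.8%) and rose for 1, against 16.5% and 12.5% of all genes. Their median log2 fold change was -0.88. *Tgfb3* (log2 fold change -2.62, adjusted p = 0.000798), a latent growth factor bound by *Itgav* integrins, fell together with *Fbn1* (-2.16, adjusted p = 0.00128), the fibrillin-1 gene, and *Spp1* (-2.62, adjusted p = 0.00134), the osteopontin gene. *Cdh1*, the E-cadherin bound by the product of *Itgae*, was at 162 ± 28.5 CPM (SD, n = 3) against 39.9 ± 13.1 CPM (n = 3) (log2 fold change -2.02, adjusted p = 0.00170). Fibronectin (*Fn1*), a ligand that hepatocytes secrete, was the gene that rose (670 ± 75.4 against 1007 ± 180 CPM, log2 fold change 0.59, adjusted p = 0.0450). This rise was smaller in size than the shift of -0.72 that ERCC scaling gave the median of all genes. Values of *Fn1* with other scalings are not given here.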

How the data were processed

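RNA-seq libraries of 6 livers were trimmed with Trimmomatic 0.36, aligned to GRCm38 with STAR 2.5.2b and counted per gene with featureCounts of Subread 1.5.2, per the submitters' processing notes. The values deposited by the authors are raw counts per gene without normalization, and whether counting used strand is not given in the sources used here. Genotypes were taken from the sample labels, with WT read as SHMT2 fl/fl and KO as SHMT2 HKO. Neither library sizes nor tests included the 92 ERCC spike-in RNAs, and 345 gene IDs without a symbol held 0.0416% of gene counts.

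Analysis used R 4.3.3. After a low-count filter (filterByExpr) and TMM scaling, genotype was tested with the robust quasi-likelihood F test in edgeR 4.0.16, with no covariate. Adjusted p-values of this main fit are Benjamini-Hochberg values of the two-sided test over 16089 genes. Those of each alternative fit were adjusted within that fit, and these fits tested 13815 to 29420 genes. For the ratios, an exact permutation test over 20 splits was adjusted over 8 ratios. SE was the log2 fold change divided by the root of F. CPM used TMM-scaled library sizes, while TPM were computed from the counts and the merged exon length of GENCODE vM21 without TMM, and served only to compare levels between genes and shares within a mouse. The test was also tried on counts simulated with the means, dispersions and library sizes of these data.

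The genes, their roles, the ratios, partner lists, marker lists and alternatives were chosen with earlier results of these data known. Genes of the symbol rule were described, and low counts were a mean under 20 counts per library or removal by the filter. From each partner list up to 3 genes with the smallest adjusted p in each direction among those called were named, with *Fermt3*, *Fermt1* and *Cdh1* whatever their call. The values of 1 gene, which is in the counts, are not reported here. A few marker genes (*Krt19*, *Col1a1*, *Pf4*) were chosen after their values were seen. Alternatives were DESeq2 1.42.0, limma-voom (limma 3.58.1), no TMM, ERCC scaling, no filter beyond 1 count, at least 10 counts in every sample, the replicate number as a block, leaving out each mouse, and the cutoff of the study's methods. Upstream windows are from RefSeq (GRCm38.p6), cut to 250 bases before the start.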

Additional observations from a re-analysis of the deposited data

How the results depend on the processing

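DESeq2, limma-voom and the replicate block called the same 22 laminin and integrin genes lower and the same 2 higher. The lower genes numbered 25 without TMM, 22 with ERCC scaling, 20 with no filter beyond 1 count, 19 with at least 10 counts in every sample (32 genes tested) and 17 to 23 when a mouse was left out. The cutoff of the study's methods gave 23 lower and 3 higher, where it gave 21.8% lower and 19.5% higher over all genes. The higher genes numbered 0 with ERCC scaling and 2 to 3 when a mouse was left out. Of the 22 lower genes, 16 were called in every alternative that tested them, and *Itga5*, *Itga8*, *Itga9*, *Itgam*, *Itgax* and *Itgb8* were not. Scaling shifted the median of all genes by -0.42 without TMM and by -0.72 with ERCC scaling, and the median of these genes was -1.50 and -1.71. Over all genes, 4923 were lower and 539 higher without TMM, 107 were higher with ERCC scaling, and leaving out a mouse gave 1621 to 3076 lower and 805 to 2521 higher. The cause was not tested.

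Signs turned only for uncalled genes: *Itga10* (-0.32 without TMM, -0.71 with ERCC scaling, -0.041 to 0.24 when a mouse was left out, below 0 without WT2 or KO1), *Itga2b* (-0.016 without TMM, -0.27 with ERCC scaling), *Itga7* (-0.29 with ERCC scaling), *Lama3* (-0.28 without TMM, -0.71 with ERCC scaling, -0.36 to 0.39 when a mouse was left out, below 0 without KO1) and *Lamb3* (-0.33 without TMM, -0.60 with ERCC scaling, -0.20 to 0.38 when a mouse was left out, below 0 without WT1 or KO2). All 8 ratios kept their sign when a mouse was left out.

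Same-numbered mice did not deviate together (correlations of -0.0459, 0.0125 and -0.0766), so the numbers were not taken to pair the mice, and the replicate block moved all genes called to 2187 lower and 1397 higher. With 3 mice a group, the permutation tests cannot reach 0.05, and depth limits *Itgad* and *Itga2*, at 5.17 and 15.0 counts per library on average.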

Other observations

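Genes that act beside or behind the integrins were called in both directions, as were all genes (16.5% lower and 12.5% higher), and their counts are no result about these lists. Of the 7 laminin receptors outside the integrin family, 2 (28.6%) fell and 1 (14.3%) rose, with a median log2 fold change of -0.06. *Bcam*, the Lutheran glycoprotein that binds the *Lama5* product, was at 62.3 ± 20.1 CPM (SD, n = 3) in SHMT2 fl/fl livers and 11.2 ± 2.44 CPM (n = 3) in SHMT2 HKO livers (log2 fold change -2.47, SE 0.26, adjusted p = 0.00111). *Mcam*, the CD146 gene of vessel walls, which binds the *Lama4* product, fell less (-0.87, SE 0.21, adjusted p = 0.0162), and the syndecan *Sdc4* rose (0.56, SE 0.16, adjusted p = 0.0318). The *Sdc4* rise was smaller in size than the median shift of -0.72 with ERCC scaling.

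Of 27 integrin adaptors and kinases, 5 (18.5%) fell, 4 (14.8%) rose and 18 were not called, with a median log2 fold change of -0.11. The kindlins bind beta subunit tails. *Fermt1* of epithelia was at 13.9 ± 3.48 against 2.73 ± 0.732 CPM (log2 fold change -2.34, adjusted p = 0.00128), *Fermt3* of blood cells at 19.5 ± 1.69 against 10.2 ± 1.87 CPM (-0.94, adjusted p = 0.00560), and *Fermt2* of most other cells at 63.9 ± 5.44 against 96.3 ± 22.0 CPM (0.59, adjusted p = 0.0329). *Parvg*, the parvin of blood cells, fell by 1.61 and *Src*, a kinase gene, by 1.59 (log2, adjusted p = 0.00219 for *Parvg* and 0.00165 for *Src*). *Rap1a*, a small GTPase that activates integrins, rose by 0.50 and *Lims2* by 0.39 (adjusted p = 0.0147 and 0.0338). The rises of *Fermt2*, *Rap1a* and *Lims2* were smaller in size than the median shift of -0.72 with ERCC scaling. Values of these genes with other scalings are not given here.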
